A study of Mus musculus with 6 samples.

Results

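Complex I (NADH:ubiquinone oxidoreductase) was examined through the nuclear genes whose symbol starts with Nduf. The table held 45 such symbols, of which 43 had a mean of at least 10 normalised read counts over the 6 libraries, among 23393 named genes of which 11947 passed that minimum. The 43 comprised 7 genes whose symbol starts with Ndufaf, which were taken as assembly factors, and 36 others, which were taken as subunits. The remaining symbols, Ndufa4l2 and Ndufs5, were listed at 0 in every library. Whether these zeros come from the counting or from absent expression was not tested. No row matched Ndufb1, and the subunits encoded by mitochondrial DNA are not analysed here.

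The RNA was that of pathogenic Th17 cells, helper T cells that produce interleukin-17, differentiated in culture from mouse cells. Naive CD4 T cells of the C57BL/6 strain had been stimulated with antibodies to CD3 and CD28 for 2 days, with the cytokines IL-1b, IL-6 and IL-23 added. In the 3 Stim1KO Stat3C libraries the cells were Stim1fl/fl Stat3CSTOPfl/fl CD4-Cre, so that Cre under the Cd4 promoter deleted Stim1, a calcium sensor of the endoplasmic reticulum, and switched on Stat3C, a constitutively active STAT3. In the 3 Stat3C libraries the cells were Stat3CSTOPfl/fl CD4-Cre, with the same active STAT3 and intact Stim1. Both groups therefore carried Stat3C and Cre, and cells that lack Stat3C are not part of the comparison. The labels give no age and do not say whether replicates came from separate mice. The p-values therefore reflect only how far these samples spread, a spread that may be partly technical.

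Complex I takes electrons from NADH, passes them along a chain of iron-sulfur clusters to ubiquinone, and pumps protons across the inner mitochondrial membrane. Its peripheral arm stands in the matrix and is built from an NADH module and a ubiquinone module, while its membrane arm holds the proton pumps. Core subunits do the catalysis and are shared with bacteria, supernumerary subunits surround them, and assembly factors help to build the enzyme but leave it when it is finished. In activated T cells complex I regenerates the NAD+ that the citric acid cycle needs.

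Values are read counts that the authors scaled per library, and every log2 fold change is Stim1KO Stat3C minus Stat3C. The targeted gene stood at 811, 794 and 687 normalised counts in Stim1KO Stat3C, against 1999, 1969 and 1931 in Stat3C (log2 fold change -1.37, SE 0.08, adjusted p = 0.000287), so Stim1 fell in the libraries labelled as its knockout. All 9 markers of Th17 and CD4 T cells were detected, with Il17f at 2874 to 3532 in Stim1KO Stat3C and 9805 to 12993 in Stat3C. Reads recovered from the table came to 16009755, 20660749 and 22519269 in Stim1KO Stat3C and 51347367, 43532417 and 23092044 in Stat3C, a 3.21-fold range. Some libraries stood apart. Replicate 3 of each group had high Xist (11549 in Stim1KO Stat3C and 8362 in Stat3C, at most 3.53 in the others) and Y-linked genes at or near 0. Stat3C replicate 2 had the highest sum of myeloid markers, 227, against 17.9 to 41.6 in the other 5 libraries.

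In Stim1KO Stat3C, 5 of the 43 genes fell (11.6%) at an adjusted p under 0.05, beside 4.96% lower calls over all tested genes, and none rose, beside 8.62% higher calls. The 5 were the acyl carrier protein Ndufab1, the peripheral-arm subunits Ndufa6, Ndufs7 and Ndufv1, and the assembly factor Ndufaf2, each lower by 12.2% to 22.0%. The test was limma on log2(value + 1), two-sided, with Benjamini-Hochberg adjustment over all 11947 genes. At an unadjusted p under 0.05, 18 were lower and 0 higher, beside 1677 lower and 2036 higher of all 11947 genes. On recovered reads edgeR called 4 lower, beside 4.70% of all genes, and DESeq2 called 8 lower, beside 8.40%. Both called 0 of the 43 higher, beside 945 and 1246 of all genes. The log2 fold change was negative for 38 of 43 (88.4%), with a median of -0.13, against 50.2% negative and a median of -0.0011 over all tested genes. For 23 of the 43 (53.5%) all 3 values in Stim1KO Stat3C lay below all 3 in Stat3C, beside 16.4% of all tested genes, and for 0 of them the opposite held. In bulk RNA, fewer cells of a type and less RNA per cell cannot be told apart.

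**Figure D1:**
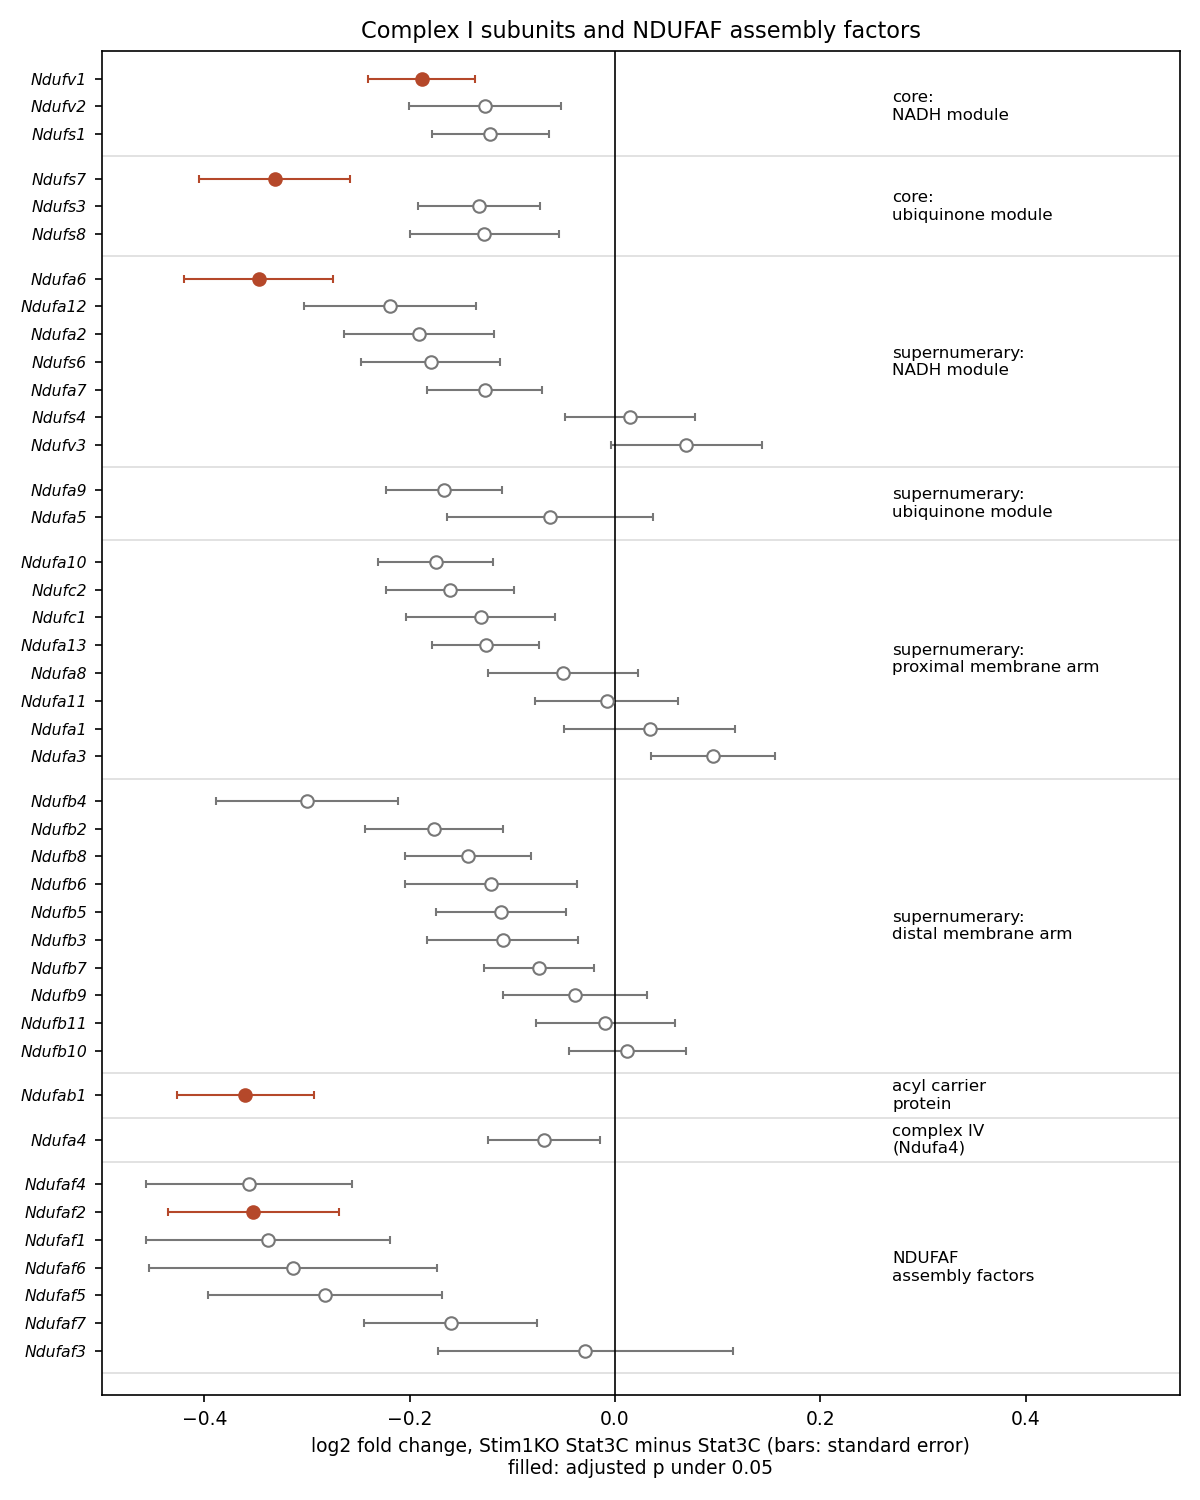
Log2 fold change (Stim1KO Stat3C minus Stat3C, log2(value + 1) scale, bars are the standard error) of 42 of the 43 genes, grouped by module, with filled points for an adjusted p under 0.05. The points run from -0.36 for Ndufab1 to 0.10 for Ndufa3, and the 5 filled ones lie between -0.36 and -0.19.

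The range was narrow, from -0.36 to 0.10 on the log2 scale. The 4 lower subunits were 4 of 36 (11.1%), with a subunit median of -0.13, and the assembly factors had 1 of 7 lower (14.3%), with a median of -0.31 and all 7 negative. Among the 34 core and supernumerary subunits, 3 of the 16 in the peripheral arm fell and 0 of the 18 in the membrane arm. The counts were 7 in the peripheral arm and 6 in the membrane arm at an unadjusted p under 0.05. With edgeR they were 2 and 0, and with DESeq2 3 and 2. The medians of the arms, -0.13 for the peripheral arm and -0.11 for the membrane arm, were close, and the difference between them was not tested.

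Ndufab1 showed the largest decrease among those that passed. It encodes the mitochondrial acyl carrier protein, which carries the growing chains of mitochondrial fatty acid synthesis and also sits in both arms of complex I. It stood at 1534, 1748 and 1690 normalised counts in Stim1KO Stat3C, against 2143, 2044 and 2187 in Stat3C. The highest Stim1KO Stat3C library lay below the lowest Stat3C library, with a log2 difference of -0.36 (SE 0.07, adjusted p = 0.0126). The gene lies on chromosome 7, 122085403 to 122101886, minus strand (GRCm38). The annotation holds a processed pseudogene of it, Ndufab1-ps, on the same chromosome, so its count is uncertain where reads fit both copies.

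Ndufa6 encodes a small subunit of the LYR family to which an acyl carrier protein binds at the peripheral arm. Its values were 794, 868 and 794 in Stim1KO Stat3C and 983, 1079 and 1063 in Stat3C. No library of the knockout reached the lowest Stat3C value, and the log2 difference was -0.35 (SE 0.07, adjusted p = 0.0195). Ndufa6 (chromosome 15, 82350140 to 82354322, minus strand) and Ndufab1, whose products touch each other in the enzyme, were thus lower by 21.4% and 22.0%.

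Ndufs7 is the core subunit that holds the last iron-sulfur cluster before ubiquinone. Normalised counts of Ndufs7 were 1063, 1254 and 1126 in Stim1KO Stat3C and 1420, 1442 and 1459 in Stat3C. The Stat3C libraries lay close together and all above the Stim1KO Stat3C libraries (log2 fold change -0.33, SE 0.07, adjusted p = 0.0241). The gene lies on chromosome 10, 80249121 to 80256794, plus strand. Ndufv1 is the core subunit at the other end of that chain, where NADH binds and gives its electrons to a flavin (chromosome 19, 4007384 to 4012806, minus strand). Ndufv1 stood at 2453, 2522 and 2582 in Stim1KO Stat3C, against 2878, 2780 and 2953 in Stat3C. The groups did not overlap, but the decrease was the smallest of the 5 (-0.19, SE 0.05) and its adjusted p of 0.0494 was the closest to the threshold.

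Ndufaf2, a relative of the subunit Ndufa12, holds a late assembly intermediate until the NADH module is complete. It stood at 392, 391 and 385 in Stim1KO Stat3C and 507, 467 and 518 in Stat3C. All Stim1KO Stat3C values lay within 7 counts of each other and below every Stat3C value (log2 fold change -0.35, SE 0.08, adjusted p = 0.0299). Its exons (chromosome 13, 108002715 to 108158623, minus strand) share 65.6% of their bases with B230220B15Rik on the opposite strand, and whether the counting used strand is not stated in these sources. How far this gene enters its count is therefore uncertain. Ndufa12 itself was at 1571, 1677 and 1886 in Stim1KO Stat3C and 1919, 1899 and 2150 in Stat3C, without overlap but short of the threshold (-0.22, SE 0.08, adjusted p = 0.122).

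**Figure D2:**
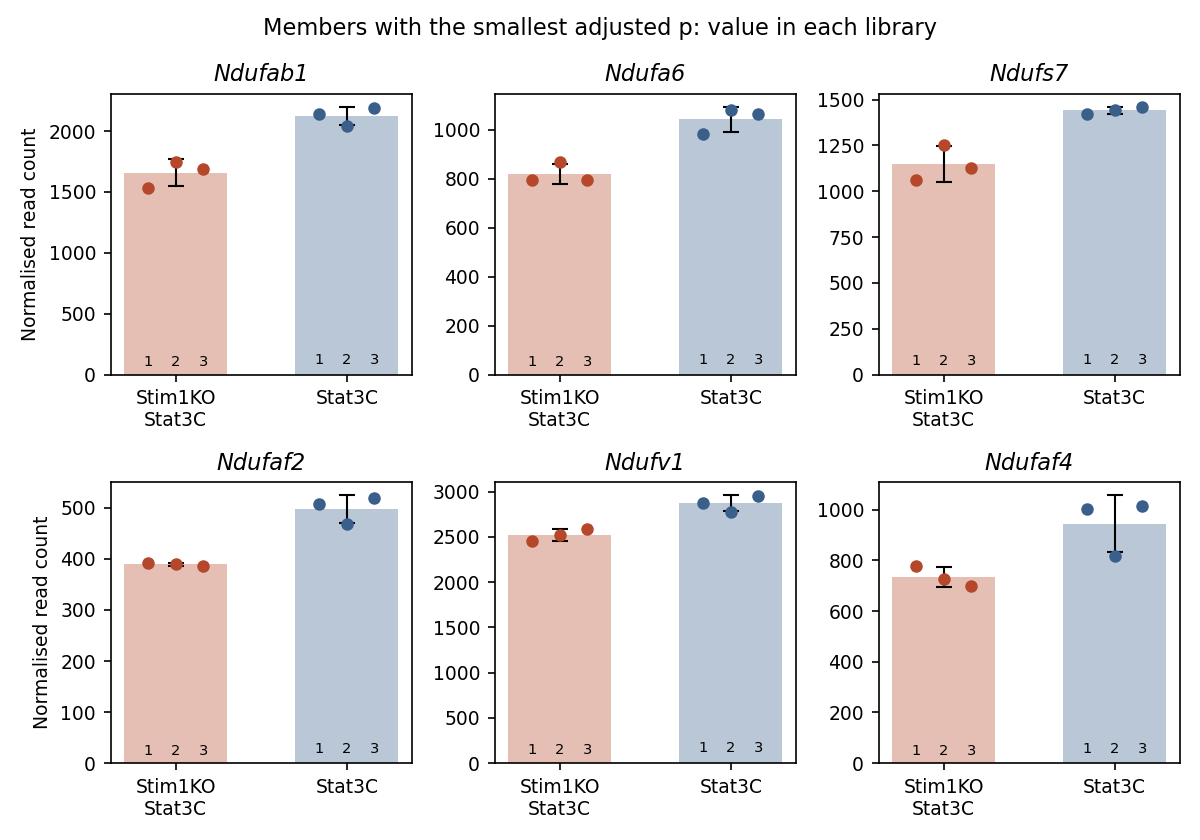
Normalised read count in each library (points, numbered by replicate), with bars for the mean and error bars for the SD (n = 3 per group), for the 5 genes that passed the threshold and for Ndufaf4, which had the next smallest adjusted p. In all 6 panels the 3 Stim1KO Stat3C points lie below the 3 Stat3C points.

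The other 6 assembly factors did not pass. Ndufaf4, which with Ndufaf3 holds the early ubiquinone module, came closest. It stood at 779, 726 and 699 in Stim1KO Stat3C and 1001, 815 and 1016 in Stat3C (-0.36, SE 0.10, adjusted p = 0.0523), a separation without overlap but with a wide Stat3C group. Its partner Ndufaf3 gave 216, 246 and 208 in Stim1KO Stat3C and 196, 265 and 226 in Stat3C. Those values overlapped fully (-0.03, SE 0.14, adjusted p = 0.908), and Ndufaf3 was the assembly factor with the smallest difference.

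Ndufaf1 is part of the complex that builds the membrane arm together with Ecsit and Acad9. Its counts were 442, 434 and 562 in Stim1KO Stat3C and 578, 576 and 656 in Stat3C (-0.34, SE 0.12, adjusted p = 0.0994). Here replicate 3 was the highest of both groups, and the groups just missed each other. Ndufaf1 passed with the Xist class as a covariate (limma, adjusted p = 0.0328) and without Stim1KO Stat3C replicate 3 (0.0354), and its adjusted p ran from 0.0328 to 0.289 over the 21 other settings. Ndufaf5, which hydroxylates an arginine of Ndufs7, stood at 320, 294 and 372 in Stim1KO Stat3C and 398, 375 and 423 in Stat3C (-0.28, SE 0.11, adjusted p = 0.138), again with replicate 3 highest in both groups and no overlap. Ndufaf6, needed early in assembly, had 274, 271 and 341 in Stim1KO Stat3C and 367, 317 and 418 in Stat3C (-0.31, SE 0.14, adjusted p = 0.172). There Stim1KO Stat3C replicate 3 lay above Stat3C replicate 2, so the groups overlapped. Ndufaf7, which methylates an arginine of a core subunit, stood at 586, 512 and 518 in Stim1KO Stat3C and 619, 604 and 581 in Stat3C (-0.16, SE 0.08, adjusted p = 0.237), where Stim1KO Stat3C replicate 1 lay above Stat3C replicate 3.

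Summed over the 7 assembly factors, normalised counts were 2990 ± 108 in Stim1KO Stat3C and 3642 ± 210 in Stat3C (SD, n = 3 each), which is 17.9% lower. The same sum over the 36 subunits was 62476 ± 1863 in Stim1KO Stat3C and 67599 ± 1428 in Stat3C, which is 7.58% lower. The difference between these sums was not tested. The eighth assembly factor, Ndufaf8, which stabilises Ndufaf5, was listed under its older symbol 1810043H04Rik and so fell outside the rule. It stood at 294, 294 and 334 in Stim1KO Stat3C and 371, 375 and 374 in Stat3C, with no overlap (-0.28, adjusted p = 0.0909).

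Of the 7 nuclear core subunits, 2 passed (Ndufs7 and Ndufv1, 28.6%), beside 4.96% lower calls over all tested genes. The count was 1 with edgeR, beside 4.70% of all genes, and 2 with DESeq2, beside 8.40%. All 7 had a negative log2 fold change, beside 50.2% of all tested genes. Ndufs1, the largest iron-sulfur protein of the NADH module, had 2616, 2838 and 2821 in Stim1KO Stat3C and 2882, 3095 and 3022 in Stat3C (-0.12, SE 0.06, adjusted p = 0.191). Ndufv2, the partner of Ndufv1, had 1951, 2155 and 2342 in Stim1KO Stat3C and 2316, 2286 and 2422 in Stat3C (-0.13, SE 0.07, adjusted p = 0.28). Ndufs1 was separated without overlap, whereas for Ndufv2 the third Stim1KO Stat3C library lay among the Stat3C ones.

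In the ubiquinone module, Ndufs3 had 1809, 1932 and 1818 in Stim1KO Stat3C and 2006, 1960 and 2130 in Stat3C (-0.13, SE 0.06, adjusted p = 0.171), without overlap. Ndufs8, an iron-sulfur protein that passes electrons on to Ndufs7, had 1541, 1722 and 1796 in Stim1KO Stat3C and 1810, 1785 and 1923 in Stat3C (-0.13, SE 0.07, adjusted p = 0.268), with a slight overlap.

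Among the 27 supernumerary subunits Ndufa6 alone passed (3.70%, beside 4.96% lower calls over all tested genes). At an unadjusted p under 0.05, 11 of them were lower, and their median was -0.12. The next was Ndufb4 of the distal membrane arm, with 741, 769 and 872 in Stim1KO Stat3C and 984, 906 and 1041 in Stat3C (-0.30, SE 0.09, adjusted p = 0.0599). Its groups did not overlap, and the annotation lists a processed pseudogene, Ndufb4c, so its count is uncertain as well. Ndufa10 of the proximal membrane arm had 2702, 2637 and 2804 in Stim1KO Stat3C and 3012, 2956 and 3229 in Stat3C (-0.17, SE 0.06, adjusted p = 0.0778). Ndufa9, which sits near the ubiquinone site, stood at -0.17 (SE 0.06, adjusted p = 0.0903). Ndufa13, also known as GRIM-19 and described as a binding partner of STAT3, had 2417, 2341 and 2415 in Stim1KO Stat3C and 2512, 2677 and 2641 in Stat3C (-0.13, SE 0.05, adjusted p = 0.145). Both Ndufa10 and Ndufa13 were separated without overlap and short of the threshold.

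Only 5 of the 43 log2 fold changes were positive, and none of the 5 passed. The largest was that of Ndufa3, a small membrane-arm subunit, with 1594, 1559 and 1689 in Stim1KO Stat3C and 1485, 1567 and 1478 in Stat3C (0.10, SE 0.06, adjusted p = 0.315). Its groups overlapped through Stat3C replicate 2. The others were Ndufv3 (0.07), Ndufa1 (0.03), Ndufs4 (0.01) and Ndufb10 (0.01), each with overlapping groups, and Ndufs4 and Ndufb10 turned slightly negative with upper-quartile scaling. Ndufs4, a late-joining subunit of the NADH module, had 1115, 1234 and 1208 in Stim1KO Stat3C and 1174, 1174 and 1170 in Stat3C, so the knockout libraries lay on both sides of the Stat3C values.

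Promoter letters are shown as a description, because promoters of such genes are known as targets of factors that control respiratory genes. Any part of these letters in the differences between the groups was not tested. RefSeq windows (GRCm38.p6, 250 bases before to 50 after the annotated start) were matched for 38 of 43 members. The other 5, Ndufa2, Ndufaf6, Ndufb9 and Ndufs1 among them, had none. Both strands were searched for the NRF1 core CGCATGCG, the YY1 core AAGATGGCG, the ETS core CCGGAAGT and the ERR element TCAAGGTCA. The NRF1 core was in 4 of 38 members (10.5%), against 2.07% of the 27025 genes with a window. Stretches of 30 bases on the gene strand, with the core in capitals, follow for these 4.
Ndufaf4 (chr4:24897960-24897989, plus strand): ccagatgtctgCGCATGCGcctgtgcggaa
Ndufaf5 (chr2:140170652-140170681, plus strand): agtcccgttggCGCATGCGcctaatagaaa
Ndufa8 (chr2:36049329-36049358, minus strand): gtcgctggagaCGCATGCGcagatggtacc
Ndufa11 (chr17:56717692-56717721, plus strand): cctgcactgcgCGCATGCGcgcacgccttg
The core began 112, 9 and 59 bases before the start in Ndufaf4, Ndufa8 and Ndufa11, and at base 18 after it in Ndufaf5. Their log2 fold changes were -0.36 and -0.28 for the assembly factors Ndufaf4 and Ndufaf5, but -0.05 and -0.01 for the membrane-arm subunits Ndufa8 and Ndufa11, and none of the 4 passed.

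The YY1 core was in 5 of 38 members (13.2%), against 1.64% of all genes. In each of the 5 it lay on the gene strand after the RefSeq start, with its first base at position 23 to 36. The core contains ATG, the letters of a start codon. Whether these matches lie at translation starts was not tested, so the higher share cannot be read as one of YY1 sites. The stretches show AAGATGGCG in capitals.
Ndufs7 (chr10:80249463-80249492, plus strand): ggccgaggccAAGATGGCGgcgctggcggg
Ndufa9 (chr6:126849096-126849125, minus strand): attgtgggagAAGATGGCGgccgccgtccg
Ndufc1 (chr3:51408914-51408943, minus strand): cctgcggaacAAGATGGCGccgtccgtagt
Ndufs6 (chr13:73328433-73328462, minus strand): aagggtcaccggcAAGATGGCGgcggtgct
Ndufs4 (chr13:114388045-114388074, minus strand): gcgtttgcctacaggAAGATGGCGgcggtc
Of these, Ndufs7 fell, while Ndufs6 (-0.18), Ndufa9 (-0.17), Ndufc1 (-0.13) and Ndufs4 (0.01) did not pass. The ETS core was in 1 member (2.63%, against 4.31% of all genes), Ndufs3, and the ERR element in 0 of 38, against 0.466%. No match overlapped another of the 4 motifs. Of the 5 genes that passed, Ndufs7 alone held any of these letters. A match is a run of letters, not a site shown to be bound.

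Levels between genes were compared per length, as the mean normalised count over 6 libraries per kilobase of transcript. Ndufa4, which bears the Nduf name but is now placed in complex IV, was highest at 5409 per kb, with 3054, 3229 and 3383 normalised counts in Stim1KO Stat3C and 3395, 3348 and 3389 in Stat3C (log2 fold change -0.07, adjusted p = 0.419, overlapping). The assembly factors lay between 152 per kb (Ndufaf3) and 654 per kb (Ndufaf2). All subunits but Ndufab1 lay above that range. Ndufab1 was lowest among the subunits at 544 per kb, a value that rests on a long annotated transcript of 3479 bases, and Ndufs4 followed at 694 per kb. In the ubiquinone module the core subunits Ndufs7 and Ndufs3 lay close together, at 1707 and 1857 per kb.

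**Figure D3:**
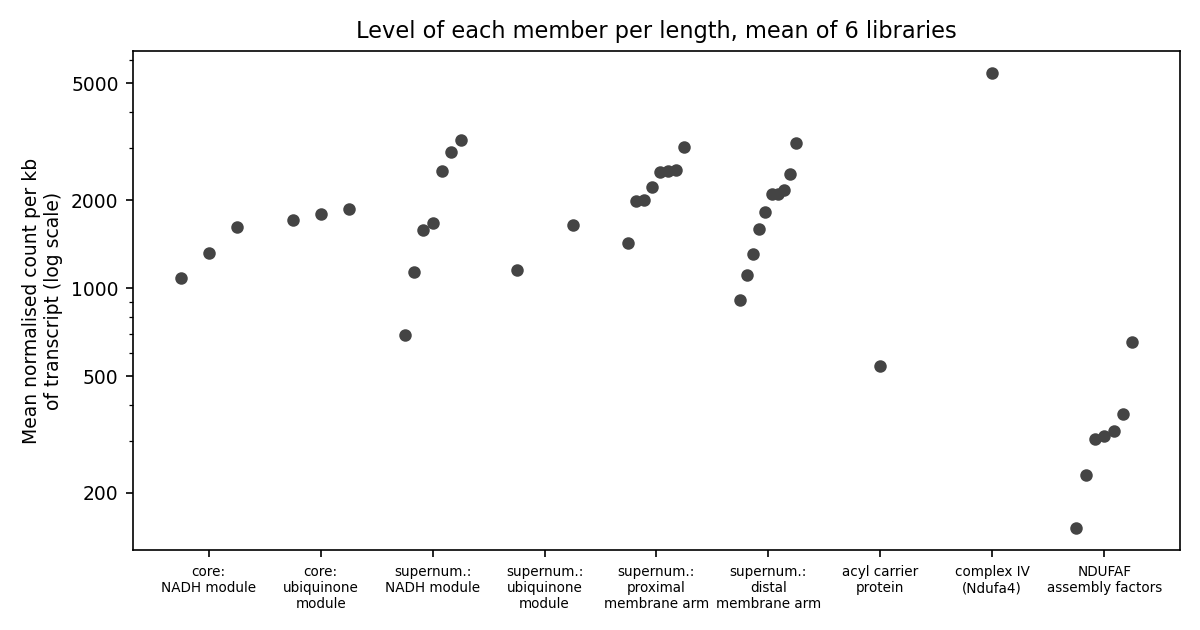
Mean normalised count per kilobase of transcript over the 6 libraries (log axis), 1 point per gene for 42 of the 43, by module. The 7 assembly factors lie from 152 to 654 per kb, with the acyl carrier protein Ndufab1 at 544 among them, and Ndufa4 highest at 5409 per kb.

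Single libraries differed in the median of the members. The median deviation of the 43 genes from their own mean over 6 libraries was -0.09, -0.09 and -0.02 on the log2 scale in Stim1KO Stat3C and 0.05, 0.05 and 0.11 in Stat3C. Over all tested genes the same median lay between -0.0091 and 0.0059. Within a library the genes scattered, in Stim1KO Stat3C replicate 3 from -0.25 (Ndufaf4) to 0.14 (Ndufa5). Stim1KO Stat3C replicate 3 stood nearest to Stat3C, and it was the highest of its own group for 23 of 43 genes. Stat3C replicate 3 was the highest of all 6 libraries for 25 genes, and Stim1KO Stat3C replicate 1 the lowest of all 6 for 20. Because replicate 3 also had high Xist in both groups, the comparison was repeated within each class. With low Xist (2 libraries against 2) 39 of 43 differences were negative with a median of -0.13. Over all tested genes 50.4% were negative there, with a median of -0.0026. With high Xist (1 against 1, without a test) 34 of 43 were negative with a median of -0.13. Over all tested genes 48.4% were negative in that class, with a median of 0.010.

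**Figure D4:**
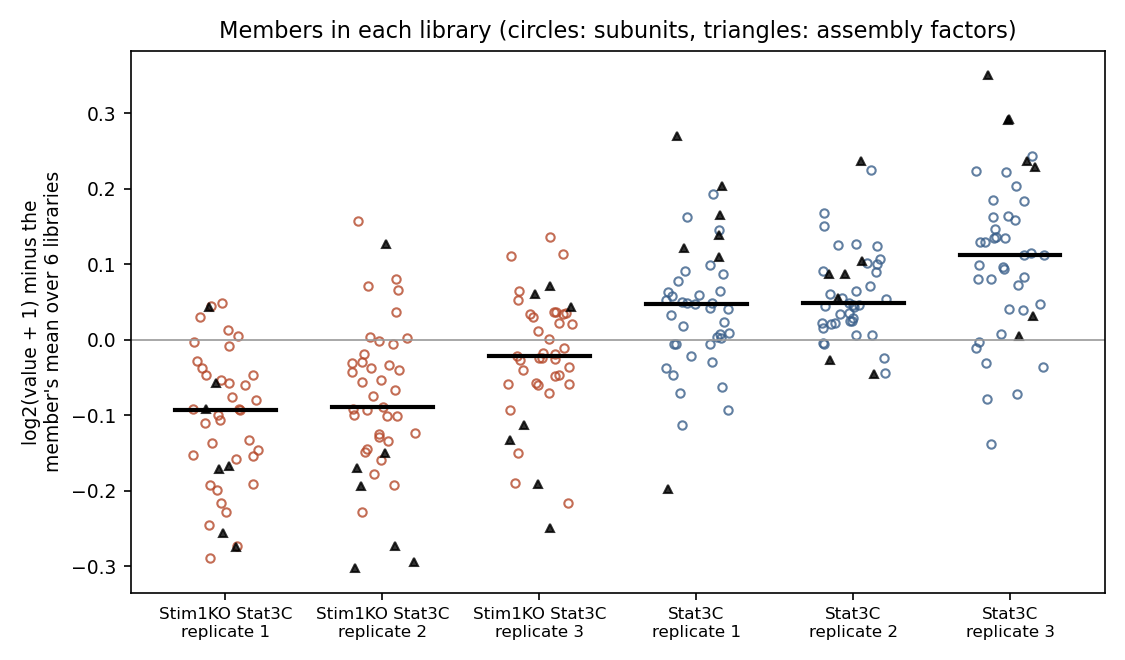
Log2(value + 1) of each gene minus its own mean over the 6 libraries, with circles for subunits, triangles for assembly factors and a line at the median of the 43. The medians run from -0.09 in Stim1KO Stat3C replicates 1 and 2 to 0.11 in Stat3C replicate 3.

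Calls changed as single libraries were left out, which also leaves fewer libraries to test. Leaving out Stat3C replicate 3 ended all 5 calls, and leaving out Stim1KO Stat3C replicate 1 or Stat3C replicate 1 left 1 member called each. In these fits 1.29%, 1.66% and 1.17% of all tested genes were called lower. Without Stim1KO Stat3C replicate 2 or 3 there were 3 members, beside 1.79% and 2.997% of all genes. Without Stat3C replicate 2, the library with the myeloid markers, there were 10 members, beside 9.98% of all genes, so the count over all genes moved the same way as that of the members. Over 21 other settings Ndufab1 lost its call in 3 (adjusted p from 8.08e-05 to 0.125) and Ndufa6 in 5 (0.00197 to 0.172). Ndufs7 lost it in 7 (0.00196 to 0.186), Ndufaf2 in 7 (0.0178 to 0.195) and Ndufv1 in 12 (0.013 to 0.202). The log2 fold change of all 5 stayed negative in all 21. Outside the 5, Ndufb4 passed in 6 of the 21 settings, Ndufaf4 in 5, and Ndufaf1 and Ndufa10 in 3 each.

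**Figure D5:**
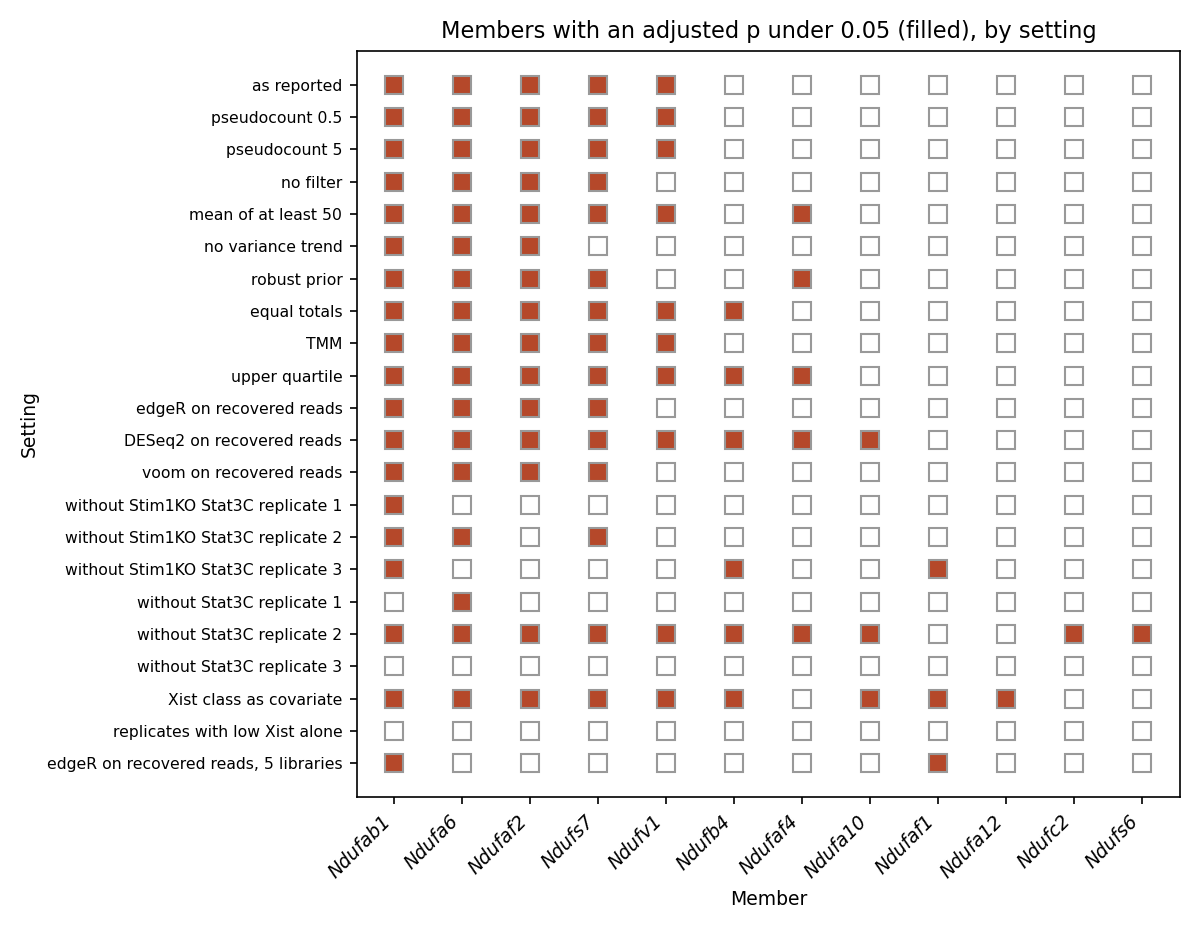
Genes with an adjusted p under 0.05 (filled squares) under the reported setting, at the top, and under 21 others, for the 12 genes that passed in at least 1 of them. Ndufab1 is filled in 18 of the 21 others and Ndufv1 in 9.

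Markers of other cell types moved between the groups as well. The CD8 T cell markers (2 of 2 lower) summed to 111 to 159 in Stim1KO Stat3C and 277 to 453 in Stat3C. B cell markers (2 of 6 lower) summed to 32.2 to 63.0 in Stim1KO Stat3C and 134 to 381 in Stat3C, with Ms4a1 at 0 in all Stim1KO Stat3C libraries. The 9 Th17 and CD4 T cell markers summed to 20592 to 23907 in Stim1KO Stat3C and 28212 to 32481 in Stat3C, with 3 lower, Il17a and Il17f among them, and 2 higher (Cd3e and Cd3g). NK cell markers stayed between 4.30 and 18.1 in all libraries with Klra8 at 0. Of the erythroid markers Hba-a1 and Hba-a2 were at 0, and Alas2 reached 35.3 in Stat3C replicate 2. Their part in the differences of complex I genes was not tested.

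Genes that work beside complex I were read in the same fit. In it 4.96% of all tested genes were called lower and 8.62% higher, with a median of -0.0011. These shares stand beside each list below. Of 13 other complex I assembly factors 0 passed (4 lower and 1 higher at an unadjusted p under 0.05, 1 lower with edgeR and 2 with DESeq2), with a median of -0.18. The one with the highest mean, Chchd4, which brings small cysteine-rich subunits into the intermembrane space, had 1449, 1475 and 1632 in Stim1KO Stat3C and 1940, 1518 and 1971 in Stat3C (-0.24, SE 0.11, adjusted p = 0.162). Its groups overlapped through Stat3C replicate 2.

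Of 15 genes that supply iron-sulfur clusters, 3 fell and 0 rose (0 higher at an unadjusted p under 0.05, with edgeR and with DESeq2), with a median of -0.22. They were Glrx5, a glutaredoxin that hands clusters on (-0.39, adjusted p = 0.00539), the cysteine desulfurase Nfs1 (-0.31, adjusted p = 0.0236) and the scaffold Iscu (-0.27, adjusted p = 0.0464). Glrx5 stood at 1706, 1618 and 1677 in Stim1KO Stat3C and 2091, 2178 and 2278 in Stat3C, without overlap. Of the core subunits that carry such clusters, Ndufs7 and Ndufv1 fell, while Ndufs1, Ndufs8 and Ndufv2 did not pass.

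Other enzymes that feed ubiquinone showed 1 of 11 lower, with a median of -0.07. That was Gpd2, the mitochondrial glycerol-3-phosphate dehydrogenase (-0.27, SE 0.06, adjusted p = 0.0209), at 1517, 1504 and 1541 in Stim1KO Stat3C and 1921, 1747 and 1851 in Stat3C. Of 13 genes of ubiquinone synthesis 1 fell (Coq4, -0.33, SE 0.08, adjusted p = 0.0319), with a median of -0.20. Further down the chain, 4 of 10 genes of complex III and cytochrome c fell (median -0.20), led by Uqcr10 (-0.32, adjusted p = 0.0143), Cyc1 (-0.24, adjusted p = 0.0335) and Uqcr11 (-0.27, adjusted p = 0.0338), with Uqcrc1 the fourth. In complex IV 2 of 11 fell (Cox7c at -0.36 and Cox8a at -0.21, median -0.12). In complex V 0 of 16 passed (7 lower at an unadjusted p under 0.05, 0 with edgeR and 3 with DESeq2), with a median of -0.12, and its subunit with the highest mean, Atp5b, overlapped between groups (-0.14, SE 0.06, adjusted p = 0.159). The 11.6% of complex I genes that fell stood between these lists, and no difference between the lists was tested.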

How the data were processed

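Stranded poly(A) RNA-seq of 6 samples (3 per genotype, 100 ng of input each, per the labels' protocols) was used. Tools listed, without roles, in the submitters' processing notes are DESeq2 1.22.2, HTSeq 0.11.1 and TopHat2 2.1.1, with the build mm10. These sources do not state gene models, counting settings (strand included) or filters. The authors deposited a normalised signal per gene and library. In every column 100% of values above 0 were whole multiples of 1 step (within 0.01), so the values were read as counts divided by a size factor, and whole reads were recovered for the count tests. For Stim1KO Stat3C replicate 3 the step lies close to 1, so edgeR was also run without it. A value of 0 allows up to 3 reads, 1.30 to 4.11 normalised counts by library, which covers counting error only. Rows with dates for names (27, at most 0.217% of a library's reads) stayed out.

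Genes with a mean of at least 10 were tested with limma 3.58.1 (R 4.3.3), with a variance trend, on log2(value + 1), a scale that understates the change of low genes, with Benjamini-Hochberg adjustment at 0.05. Alternatives were other pseudocounts (0.5 and 5), filters and scalings, edgeR 4.0.16, DESeq2 1.42.0 and voom (all 3 on recovered reads), and fits with each library left out. An Xist class as covariate, the libraries with low Xist alone and edgeR on 5 libraries were chosen after seeing the data. Neither a batch nor a pairing is labelled. Replicate numbers follow the order of accession. The steps were tested on simulated data.

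The members and lists were chosen with earlier results of these data known. Any member could be named, except that the values of 1 core subunit, counted in all totals, are not reported here. Full values were due for members past the threshold, assembly factors, core subunits, the 3 highest and 3 lowest means and the largest change each way. Outside the members, Stim1 was named, and from each list up to 3 genes that passed, those with the smallest adjusted p, or else the 1 with the highest mean. Uqcrc1, Ndufaf8, Ecsit, Acad9, marker genes and Xist fall outside that rule and were chosen after values were seen or as background. Positions, transcript lengths (the longest transcript with a RefSeq mRNA) and overlaps came from GENCODE mouse release M21 (GRCm38), in which all 43 members were found. Of these, 18 share exon bases with another gene, 3 on the same strand (Ndufb2, Ndufb8 and Ndufb9) and 16 on the opposite one, so their counts are uncertain. Promoter windows are from RefSeq.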

Additional observations from a re-analysis of the deposited data

How the results depend on the processing

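The count of 5 lower complex I genes was 3 without a variance trend, 8 with DESeq2, 9 with the Xist class as covariate, 0 in the 4 libraries with low Xist and 2 with edgeR on 5 libraries, and ran from 0 to 10 as each library was left out. The Xist covariate, the low-Xist libraries and edgeR on 5 libraries were chosen after seeing the data. Over all genes the count of 1623 was 827 without a variance trend, 2250 with DESeq2 and 1816 with the Xist class as covariate. It was 82 in the low-Xist libraries and 922 with edgeR on 5 libraries. As each library was left out it ran from 617 to 2899. The assembly-factor median of -0.31 ran from -0.37 to -0.24 and the subunit median of -0.13 from -0.15 to -0.10 in the same way. Of the 43 members 34 kept their direction in all 21 settings and 9, none of them past the threshold, turned. With each library left out, log2 fold changes ran from -0.13 to 0.082 for Ndufaf3, -0.027 to 0.10 for Ndufa1, -0.057 to 0.022 for Ndufa11, -0.088 to 0.017 for Ndufa8 and -0.015 to 0.058 for Ndufs4. For Ndufa5 they ran from -0.15 to 0.035, for Ndufb9 from -0.080 to 0.027, for Ndufb10 from -0.012 to 0.035 and for Ndufb11 from -0.052 to 0.034. In the low-Xist libraries values turned to 0.016 (Ndufaf3), -0.037 (Ndufa1), 0.037 (Ndufa11), -0.0049 (Ndufb10) and -0.0015 (Ndufs4). With edgeR on 5 libraries they turned to 0.0038 (Ndufaf3), 0.0075 (Ndufa11), -0.022 (Ndufb10) and -0.0078 (Ndufs4), and with upper-quartile scaling to -0.0064 (Ndufb10) and -0.0038 (Ndufs4). The causes were not tested. Over the 36 members named, 678 values kept direction and side of the threshold, 34 lost a call, 19 gained one and 25 turned. The share of lower genes among all calls was 36.5%, against 44.6% with DESeq2, 27.1% without a variance trend, 19.5% in the low-Xist libraries and 22.7% to 41.1% as each library was left out. With upper-quartile scaling 40 members were negative and 7 called. No paired analysis was possible because the labels give no replicate numbers. The lowest member mean was 226 normalised counts (Ndufaf3), and the standard error of a member's log2 fold change was at most 0.14 (Ndufaf3), which sets the size that 3 libraries a group can resolve.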
